A study of Mus musculus with 2 samples.

Results

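The genes that encode the replication-dependent core and linker histones were followed in 2 maps of open chromatin from the adult mouse adrenal gland. They were the protein-coding genes of the GENCODE vM21 basic annotation of mm10 whose symbols begin with Hist1h, Hist2h, Hist3h or Hist4h, which gave 67 of 21911 protein-coding genes. The Hist1 cluster on chromosome 13 held 54 of them, the Hist2 cluster on chromosome 3 held 10, the Hist3 cluster on chromosome 11 held 2, and Hist4h4 stood alone on chromosome 6. By product, 6 genes encode the linker histone H1, 18 encode H2A, 18 encode H2B, 12 encode H3 and 13 encode H4.

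The maps were made by DNase-seq, in which nuclei are treated with the nuclease DNase I and the fragments released from accessible DNA are sequenced. The tissue came from male B6CASTF1/J mice, a first-generation hybrid of an inbred laboratory strain with the wild-derived CAST strain, aged 8 to 10 months. There was 1 group, with no treatment and no control group, and it held 2 replicates, each made from pooled material of 6 biosamples and sequenced as 1 library. Both pools carry 1 and the same donor identifier in the labels, so whether they came from separate animals cannot be told apart, and every value below is given per pool without a test. The hybrid carries CAST alleles that the reference genome does not show. A pool of whole glands mixes cortex, medulla, vessels and blood cells, so a strong site in few cells and a weak site in many cannot be told apart.

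These genes supply the histones that package newly replicated DNA, and their transcription is known to rise as cells enter S phase and to fall when replication ends. They lie in dense clusters, lack introns as a rule, and many H2A and H2B genes are arranged head to head around a short shared promoter. Their mRNAs end in a conserved stem-loop bound by the protein SLBP in place of a poly(A) tail. Their transcription is organised by NPAT, a cyclin E-CDK2 substrate, and class-specific elements in the promoters include an octamer bound by OCT1 and the H4 site II bound by HINFP. The adult adrenal gland is a mostly non-dividing tissue, in which variant histones made outside S phase are known to replace part of the canonical ones. An accessible promoter is not a measure of transcription.

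Promoter sequences are shown for the gene of each class with the most signal within 250 bp of its start, for the strongest shared H2A-H2B promoter, and for 2 genes without a peak, 1 expressed in germ cells and 1 in a duplicated stretch. These were chosen after their values were seen. They were read from the RefSeq copy of GRCm38 (mm10), 5′ to 3′ along the gene, as the 180 bases that end just before the annotated start, except for the pair, where all 238 bases between the starts are given along the strand of Hist2h2be. Capitals mark matches on either strand to the TATA box TATAAA, the CCAAT box CCAAT, and the octamer ATTTGCAT.
Hist1h4c, H4, minus strand of chr13:23698455-23698634: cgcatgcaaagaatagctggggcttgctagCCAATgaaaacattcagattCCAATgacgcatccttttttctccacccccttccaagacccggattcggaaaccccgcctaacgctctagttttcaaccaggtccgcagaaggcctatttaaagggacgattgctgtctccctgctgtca
Hist1h3e, H3, minus strand of chr13:23562370-23562549: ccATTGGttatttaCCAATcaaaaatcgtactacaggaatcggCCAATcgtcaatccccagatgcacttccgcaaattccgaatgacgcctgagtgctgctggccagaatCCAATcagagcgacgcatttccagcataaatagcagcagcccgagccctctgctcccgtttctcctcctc
Hist1h1c, H1, plus strand of chr13:23738628-23738807: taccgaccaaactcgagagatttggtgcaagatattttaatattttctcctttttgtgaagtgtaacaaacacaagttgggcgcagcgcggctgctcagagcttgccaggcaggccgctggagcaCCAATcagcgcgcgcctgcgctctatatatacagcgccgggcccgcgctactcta
Hist2h2aa2, H2A, minus strand of chr3:96240277-96240456: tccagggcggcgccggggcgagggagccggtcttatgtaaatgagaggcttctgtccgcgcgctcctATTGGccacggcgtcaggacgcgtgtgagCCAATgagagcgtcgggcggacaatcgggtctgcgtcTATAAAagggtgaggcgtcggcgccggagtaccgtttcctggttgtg
Hist2h2ac/Hist2h2be, shared promoter, plus strand of chr3:96220881-96221118: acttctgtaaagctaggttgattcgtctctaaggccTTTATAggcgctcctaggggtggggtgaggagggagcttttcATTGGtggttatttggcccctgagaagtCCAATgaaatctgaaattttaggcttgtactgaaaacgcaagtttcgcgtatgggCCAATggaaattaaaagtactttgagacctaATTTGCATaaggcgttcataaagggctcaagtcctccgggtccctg
Hist1h2ba, germ cell H2B, minus strand of chr13:23934157-23934336: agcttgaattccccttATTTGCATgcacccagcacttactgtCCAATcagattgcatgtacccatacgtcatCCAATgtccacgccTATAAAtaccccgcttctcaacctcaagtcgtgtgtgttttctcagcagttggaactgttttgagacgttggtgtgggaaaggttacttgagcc
Hist1h2ao, H2A, plus strand of chr13:21810285-21810464: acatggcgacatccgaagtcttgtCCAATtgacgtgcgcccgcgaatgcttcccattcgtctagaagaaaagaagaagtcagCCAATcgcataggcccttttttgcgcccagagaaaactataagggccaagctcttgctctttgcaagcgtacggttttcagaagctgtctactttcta

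The authors' longer peak lists held 117371 peaks in replicate 1 and 146307 in replicate 2, with a median signal of 0.699 and 0.727. Neither the scaling of that signal nor the depth of the libraries is stated in the labels or readme texts. Promoters of adrenal cortex markers had a peak in both pools for 6 of 7 genes, beside 61.9% of all protein-coding genes. Star, the cholesterol carrier of steroid synthesis, had 5.44 and 6.52, and Hsd3b1 had no promoter peak in either pool. The chromaffin cell markers had a peak in both pools for 4 of 5 genes, and Pnmt had one in replicate 2 alone, at 0.695. The defining markers Cd3e and Cd79a of lymphocytes had no promoter peak in either pool, Lck had one of 0.803 and 0.703, and Ptprc had one in replicate 1 alone, at 0.268. Kdr and Cdh5 of the endothelium had one in both pools and Pecam1 did not, and markers of liver, muscle and sperm cells were at 0 in 5 of 5 cases.

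Promoters of most histone genes were open in both pools. A promoter was taken as 1 kb on either side of each annotated transcription start, and a gene counted as open where a peak overlapped it by at least 1 bp. Of the 67 genes, 58 (86.6%) were open in both pools, 9 in neither and 0 in one pool alone, beside 61.9% of all protein-coding genes. Taken singly, the pools had 62.9% and 65.3% of all genes open. With the authors' shorter peak lists 54 histone genes were open in both pools, beside 56.7% of all genes.

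Many of these genes lie closer together than the promoter is wide, and 26 of the 67 had the start of another histone gene within 1 kb. In replicate 1, 26 open genes shared their strongest peak with another histone gene, and in replicate 2, 27 did. The strongest peaks were therefore 45 and 44 distinct peaks. When overlapping promoters were merged, 36 of 38 separate regions were open in both pools. Merged regions can be wider than 1 promoter, and no share over all genes was made for them. Within 250 bp of the start 56 genes were open in both pools, beside 58.2% of all genes. At that width head-to-head genes, whose starts lie at most 305 bp apart in the H2A-H2B pairs, still take the same peak. The start of a gene of another family lay within 1 kb of 2 of the 67, with Trim17 at 0 bp from Hist3h2a and Bola1 at 156 bp from Hist2h2ab.

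The height of the open promoters was close to that of other open genes. Over the 58 genes the highest signal in a promoter had medians of 3.46 (replicate 1) and 4.06 (replicate 2), beside 3.002 and 4.07 over the 13564 genes open in both pools. Values ran from 0.817 to 9.41 and from 0.919 to 12.2. By the mean of the pools, 38 of the 58 lay above the median of all open genes, 1 (Hist1h4c) fell among the highest 10% of open genes and 0 among the lowest 10%. The signal was higher in replicate 2 for 49 of 58 histone genes and for 12947 of 13564 open genes. As log2 of replicate 2 over replicate 1, the median was 0.22 for the histone genes and 0.38 for open genes in general, so a higher value in replicate 2 was general to the libraries.

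**Figure D1:**
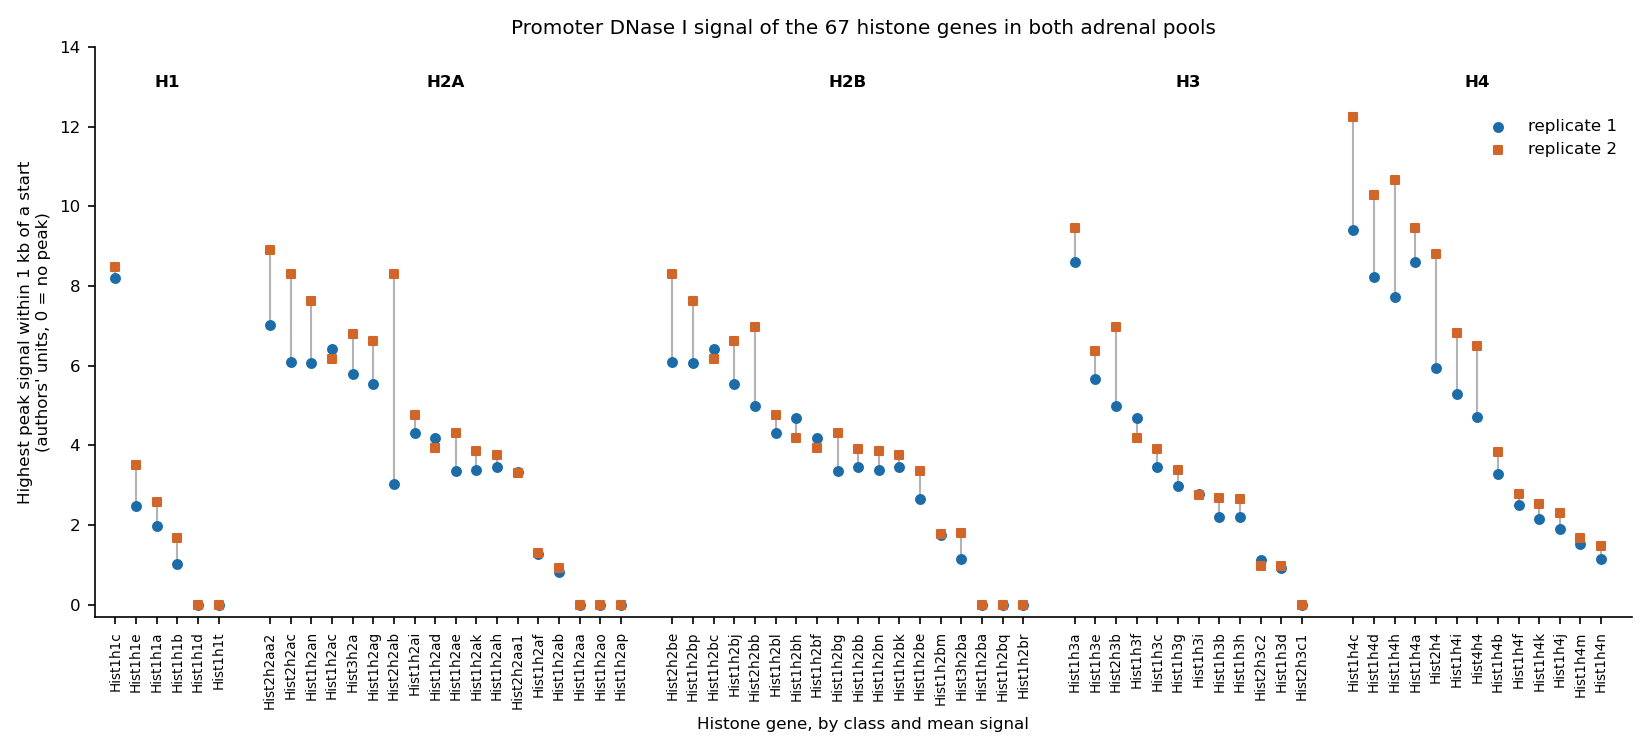
Highest peak signal within 1 kb of a start (vertical axis, authors' units, 0 for no peak) for each of the 67 histone genes, grouped by class and ordered by the mean of the pools, with a circle for replicate 1 and a square for replicate 2. All 13 H4 genes are above 0, 9 genes of the other classes sit at 0 in both pools, and Hist1h4c is highest at 9.41 and 12.2.

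The H4 genes were the class with every member open, 13 of 13. Their median signal was 4.72 in replicate 1 and 6.48 in replicate 2. Hist1h4c, shown above, had the highest value of all 67 genes, 9.41 and 12.2, which placed it at percentile 94.1 of open genes by mean signal. Hist1h4d followed with 8.23 and 10.3, and Hist1h4h with 7.72 and 10.7. Hist1h4a had 8.60 and 9.46, and the genes outside the Hist1 cluster were also high, with 5.93 and 8.79 at Hist2h4 and 4.72 and 6.48 at Hist4h4. Hist1h4i, with 5.29 and 6.82, completed the upper part of the class. The other 6 genes were lower in both pools. Hist1h4b reached 3.29 and 3.82, and Hist1h4f 2.497 and 2.79. Hist1h4j had 1.90 and 2.31 within 1 kb, and 0.959 and 1.38 within 250 bp. The lowest was Hist1h4n with 1.14 and 1.46, next to Hist1h4m with 1.52 and 1.67. Between the highest and the lowest H4 gene the signal thus differed far more than between the pools at either of them, although the 13 genes encode the same protein. Hist1h4n and Hist1h4m lie in duplicated sequence, as given below, and the part of this in the spread was not tested.

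Among the H3 genes, 11 of 12 were open, with a median of 2.97 and 3.39, and the class depended most on the width of the promoter. Hist1h3a was highest with 8.60 and 9.46, but that peak lies close to 1 kb away at Hist1h4a, and within 250 bp of its own start Hist1h3a had 2.07 and 2.502. Hist1h3e had 5.66 and 6.36 at its own start. Hist2h3b had 4.99 and 6.97 from a peak at Hist2h2bb, and 2.91 and 3.22 within 250 bp. The lowest open H3 gene by the mean of the pools was Hist1h3d with 0.921 and 0.983, although Hist2h3c2 was lower in replicate 2, at 0.975. Counted within 250 bp, 9 of 12 H3 genes were open in both pools, with a median of 2.21 and 2.74. Hist1h3f had 2.72 there in replicate 1 and no peak in replicate 2, and Hist2h3c2 had none in either pool.

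The H2A and H2B genes, whose products form 1 dimer in the nucleosome, had 15 of 18 members open in each class. The H2A median was 4.18 and 4.76 and the H2B median 4.18 and 4.20. Hist2h2aa2 led the H2A genes with 7.02 and 8.91, in a promoter that is largely duplicated sequence, as given below. Hist2h2ac, with 6.09 and 8.30, and Hist1h2an, with 6.08 and 7.62, came next, each from a promoter shared with an H2B gene. Hist1h2ab was the lowest open H2A gene, with 0.817 and 0.919, which were also the lowest values of all open histone genes. The H2B genes with the most signal were the partners Hist2h2be, at 6.09 and 8.30, and Hist1h2bp, at 6.08 and 7.62, together with Hist1h2bc at 6.42 and 6.18. Hist3h2ba was the lowest open H2B gene by the mean of the pools, with 1.16 and 1.79, although Hist1h2bm was lower in replicate 2, at 1.77. Its neighbour Hist3h2a had 5.80 and 6.79, so the Hist3 promoters differed from each other in both pools. Hist3h2a shares its annotated start with Trim17, so the gene to which that peak belongs cannot be told apart. Hist2h2ab had 3.03 and 8.30, the latter from a neighbour's peak that reached its promoter in replicate 2 only. Within 250 bp its values were 3.03 and 4.32, with the start of Bola1 156 bp away.

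Head-to-head promoters accounted for much of the H2A and H2B signal. There were 13 pairs of divergent histone genes, 12 of them an H2A with an H2B gene, with 175 to 305 bp (median 258.5) between the starts. A peak lay between the starts in both pools in 9 of the 12. Hist2h2ac/Hist2h2be, whose shared sequence is printed above, had the strongest by the mean of the pools, at 6.09 and 8.30, followed by Hist1h2an/Hist1h2bp at 6.08 and 7.62. Hist1h2ac/Hist1h2bc had 6.42 and 6.18, and Hist1h2ag/Hist1h2bj had 5.54 and 6.62. Hist1h2ai/Hist1h2bl had 4.30 and 4.76, and Hist1h2ad/Hist1h2bf had 4.18 and 3.93. The remaining open pairs lay between 3.37 and 4.31. In Hist1h2ad/Hist1h2bf and Hist1h2ac/Hist1h2bc the signal was higher in replicate 1, against the general direction. The pairs without a peak were Hist1h2ao/Hist1h2bq, Hist1h2ap/Hist1h2br and Hist1h2aa/Hist1h2ba. All 12 H2A and H2B genes outside such a pair were open, with a median of 3.18 and 3.64. Among them Hist3h2a and Hist2h2ab have the start of a gene of another family within 1 kb.

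The linker histone genes had the lowest share of open promoters, 4 of 6, and a median of 2.22 and 3.04. Hist1h1c, which encodes an H1 subtype that is abundant in many differentiated cells, had 8.20 and 8.47 in a peak centred 972 and 982 bp inside the gene record, and 3.89 and 4.32 within 250 bp of the start. Hist1h1e had 2.47 and 3.51. Hist1h1a had 1.97 and 2.57, and Hist1h1b was lowest with 1.01 and 1.67. Hist1h1d and the germ cell gene Hist1h1t had no promoter peak. The annotated start of Hist1h1d lies 1828 bp from its coding start, and within 1 kb of the start codon it had 2.44 and 2.53, so the count of closed H1 genes rests on that annotation.

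All 9 histone genes without a peak held 0 bp at a false discovery rate under 0.05 in the authors' table of cleavage rates, in both pools. This may not be separate evidence. The strongest peak of Hist1h3d was 69 and 116 bp wide, the same as its bases under that rate. Each of the 58 open genes held some, and the 67 genes had a median of 617 and 838 bp per promoter against 490 and 671 bp over all genes. With promoters of 2 kb in place of 1 kb, 66 of the 67 genes had a peak in both pools, so all but 1 of the 9 had a peak at that distance. The 9 genes fell into 3 kinds. Hist1h2aa, Hist1h2ba and Hist1h1t are known for expression in male germ cells, and their promoters consisted mostly of sequence found at a single place in the reference, 90.5%, 90.5% and 100% of 36-base words. Hist1h1d, described above, had 99.5%. The remaining 5, Hist1h2ao, Hist1h2ap, Hist1h2bq, Hist1h2br and Hist2h3c1, lay in duplicated sequence.

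Sequence duplication moved with the absence of peaks. For each position of a promoter the 36-base word starting there was counted over the reference on both strands, as was the 76-base word. In Hist1h2ao, Hist1h2ap, Hist1h2bq and Hist1h2br 0% of positions had a word that occurs at a single place, at either length. Hist2h3c1 had 21.3%, and its copy Hist2h3c2 had 20.5%, with different peaks in the pools, 1.13 centred 520 bp upstream in replicate 1 and 0.975 centred 970 bp downstream in replicate 2. Over the 67 genes the median was 77.2%, with 10 genes under 50%: 5 of the 9 without a peak and 5 of the 58 with one. The promoters of replacement histone genes had a median of 99.1%. Hist1h4m and Hist1h4n, the H4 genes with the least signal within 1 kb, had 4.75% and 4.998%. Duplicated promoters were not all low. Hist2h2aa2, the H2A gene with the most signal, had 42.1%, and 10.8% within 250 bp of the start. Hist2h2aa1, with a signal of 3.32 in each pool, had 43.1% and 15.4%. Neither the read length nor the treatment of reads that match several places is given in the sources used here, and the part of duplication in these absences and low values was not tested. Among the 57 genes with at least 50%, 53 were open in both pools.

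**Figure D2:**
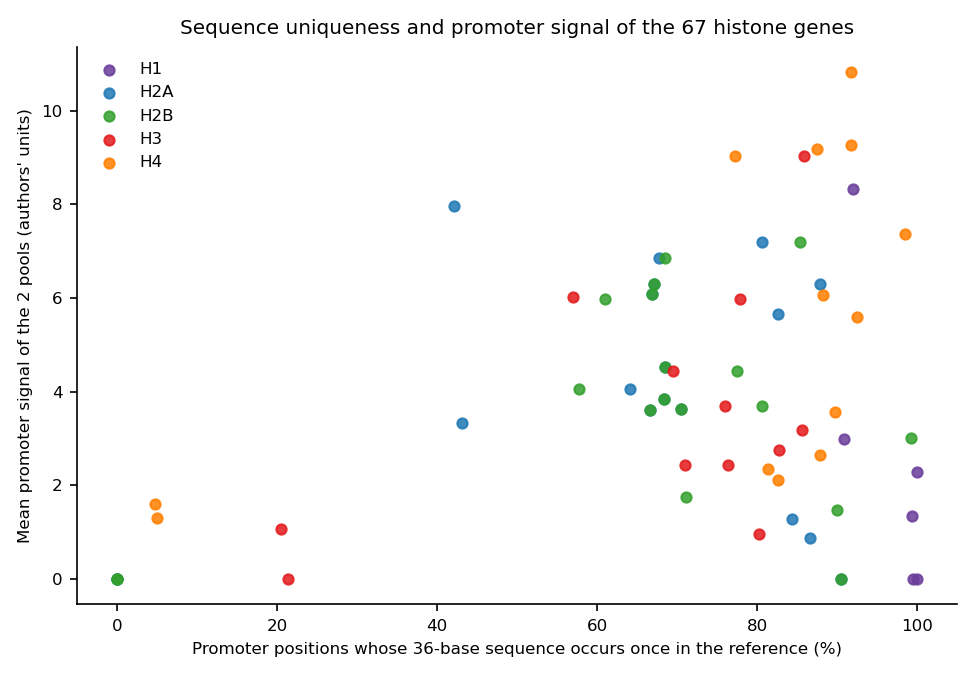
Mean promoter signal of both pools (vertical axis, authors' units) against the share of promoter positions whose 36-base sequence occurs at a single place in the reference (horizontal axis, %), 1 point per histone gene, coloured by class. The 4 genes at 0% overlie each other at a signal of 0, and Hist1h4m and Hist1h4n sit near 5% with low signal.

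The Hist1 genes form 2 blocks separated by 1487.37 kb that hold no histone gene. The first, chr13:21715763-22043676, has 23 genes in 327.914 kb, and the second, chr13:23531050-23934851, has 31 genes in 403.802 kb. Peaks were about as dense in both, 12.5 per 100 kb in replicate 1 and 14.03 in replicate 2 for the first and 12.9 and 14.4 for the second, against 2.82 and 3.70 in the stretch between them. Of the peaks in the first block, 20 of 41 and 23 of 46 lay at histone promoters, and of those in the second, 33 of 52 and 36 of 58. Open genes numbered 19 of 23 and 27 of 31, with medians of 3.38 and 3.77 in the first block and 3.45 and 3.93 in the second. Genes of other families that lie between the outermost Hist1 genes, most of them vomeronasal receptor genes, were open in 8 of 48 cases, with Zfp322a highest at 5.94 and 8.56. The Hist2 cluster, chr3:96219865-96270132, had 25.9 and 29.8 peaks per 100 kb, 9 of 10 genes open and a median of 4.99 and 8.30. In replicate 2 that median is the value of a single peak counted for Hist2h2ab, Hist2h2ac and Hist2h2be. In replicate 1 it is that of a peak counted for both Hist2h3b and Hist2h2bb.

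**Figure D3:**
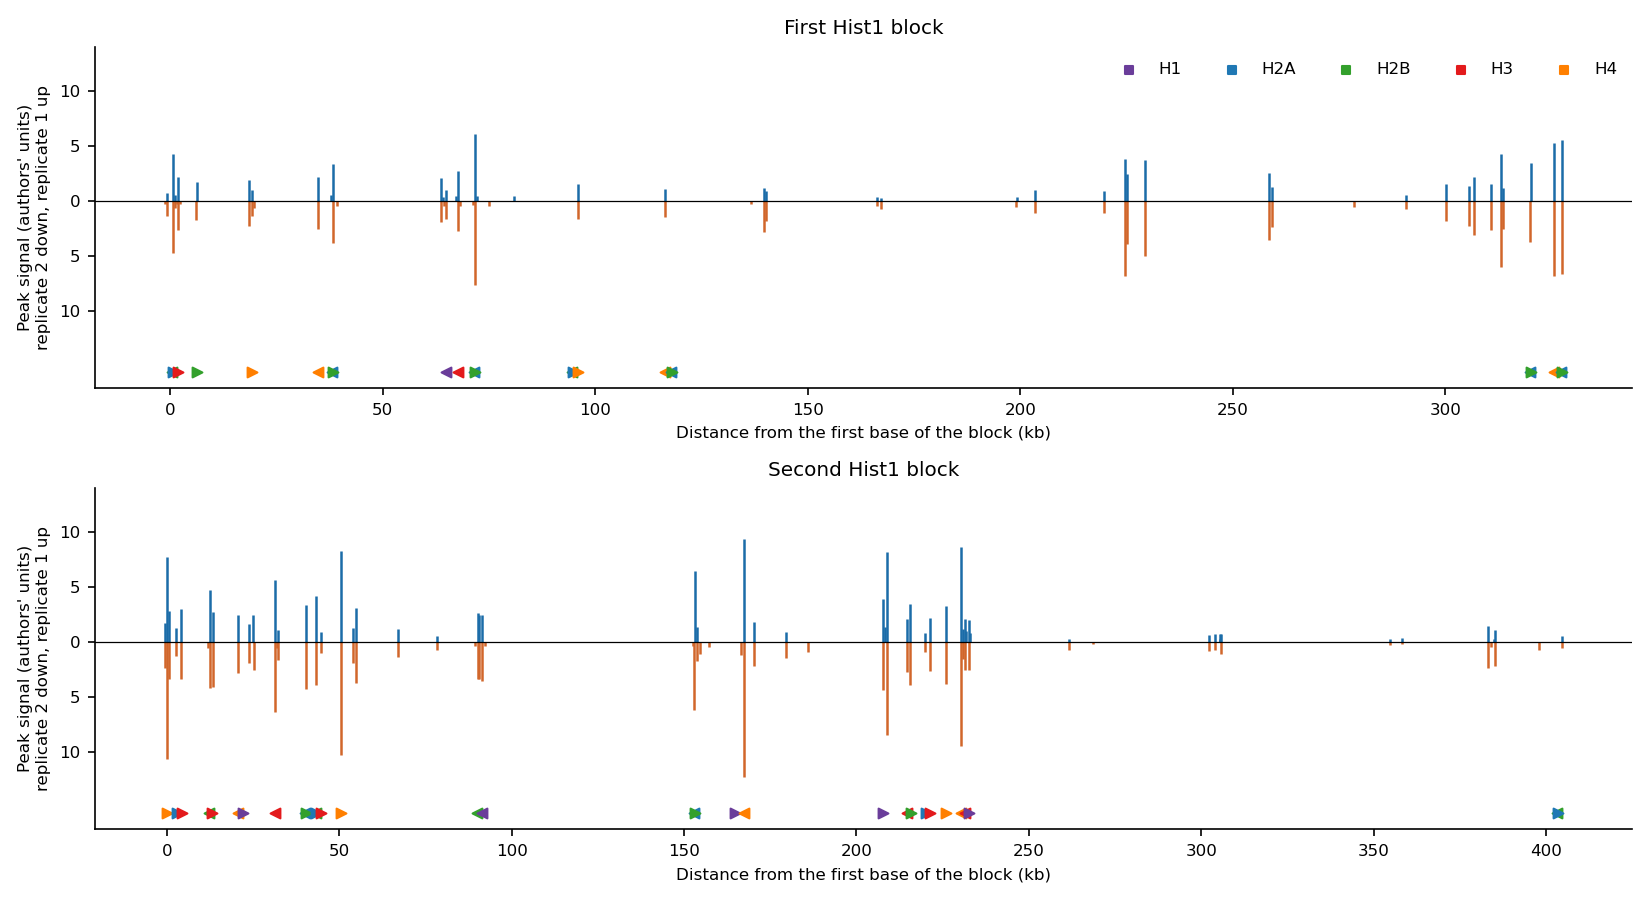
Peaks along the first (top) and second (bottom) Hist1 block, as distance from the first base of the block (horizontal axis, kb) and authors' signal (vertical axis, replicate 1 upward, replicate 2 downward), with triangles for gene starts pointing in the direction of transcription, coloured by class. The tallest line of the second block, 9.41 up and 12.2 down, stands at Hist1h4c.

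Peaks sat just upstream of the annotated starts. In 11 of the 67 genes the annotated start equals the coding start, and in Hist1h4c it lies 5 bp from it. Such records may not reach the true start, and the part of the annotation in the distances below was not tested. The midpoint of the strongest peak of an open gene lay at −80 bp (replicate 1) and −76 bp (replicate 2) from the start in the median, and covered the start in 36 and 38 of 58 genes. Coverage by peaks over all 67 genes was highest 50 bp upstream in replicate 1, at 79.3%, and 70 bp upstream in replicate 2, at 80.4%. In open genes of all kinds the maxima were 68.9% at 50 bp and 71.4% at 30 bp upstream. At 490 bp inside the gene coverage was 16.4% and 10.4% for the histone genes, and 22.3% and 24.7% for open genes of all kinds. Distinct peaks at histone promoters numbered 73 and 79, with a median width of 240 bp against 200 bp over all peaks. Most of all peaks are weaker than the strongest peak of any open histone gene, and widths at like signal were not compared.

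Footprints, short intervals inside accessible DNA where the authors' caller found cleavage to be depleted, were present in the same number of promoters as peaks. A footprint lay in 58 of 67 histone promoters in both pools, beside 59.7% of all genes, or 61.1% and 62.6% in each pool. The median gene held 6 and 7, against 3 and 4 over all genes. The 58 open histone genes held 6.5 and 7 and open genes in general 7 and 8. Hist2h2ac held the most by the mean of the pools, with 16 and 15, and Hist1h3e held 6 and 16. Of distinct peaks at histone promoters 93.2% and 88.6% held a footprint, beside 80.2% and 73.1% of all peaks. Of the 295 and 330 footprints there, 69.8% and 62.1% overlapped one of the other pool, beside 51.1% and 42.6% of all footprints. All peaks had a median signal of 0.699 and 0.727, beside 3.46 and 4.06 for the strongest peaks of open histone genes. No share was made at peaks of like signal.

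Footprint coverage was highest 70 bp upstream of the annotated start in both pools, at 25.4% and 27.2% of the 67 genes. In open genes of all kinds it was highest 10 bp upstream, at 23.5% and 26.2%. The limit of the annotated starts given above applies here as well. At 50 bp upstream, the maximum of the class, footprints covered 50% of the 13 H4 genes in replicate 1 and 47.3% in replicate 2. In Hist1h4c the footprint lay from −53 to −24 in replicate 1 and from −50 to −24 in replicate 2, over the bases ccaggtccgcagaaggcctatttaaaggga in the first. H1 genes had their maximum at 30 bp upstream, 47.5% and 50%, and H2B genes at 150 bp upstream, 36.7% and 28.1%. In the other classes the pools differed. The H2A maximum was at 150 bp upstream in replicate 1, 31.1%, and at 50 bp upstream in replicate 2, 28.6%. The H3 maximum was 10 bp downstream, 30.4%, and 70 bp upstream, 33.3%.

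**Figure D4:**
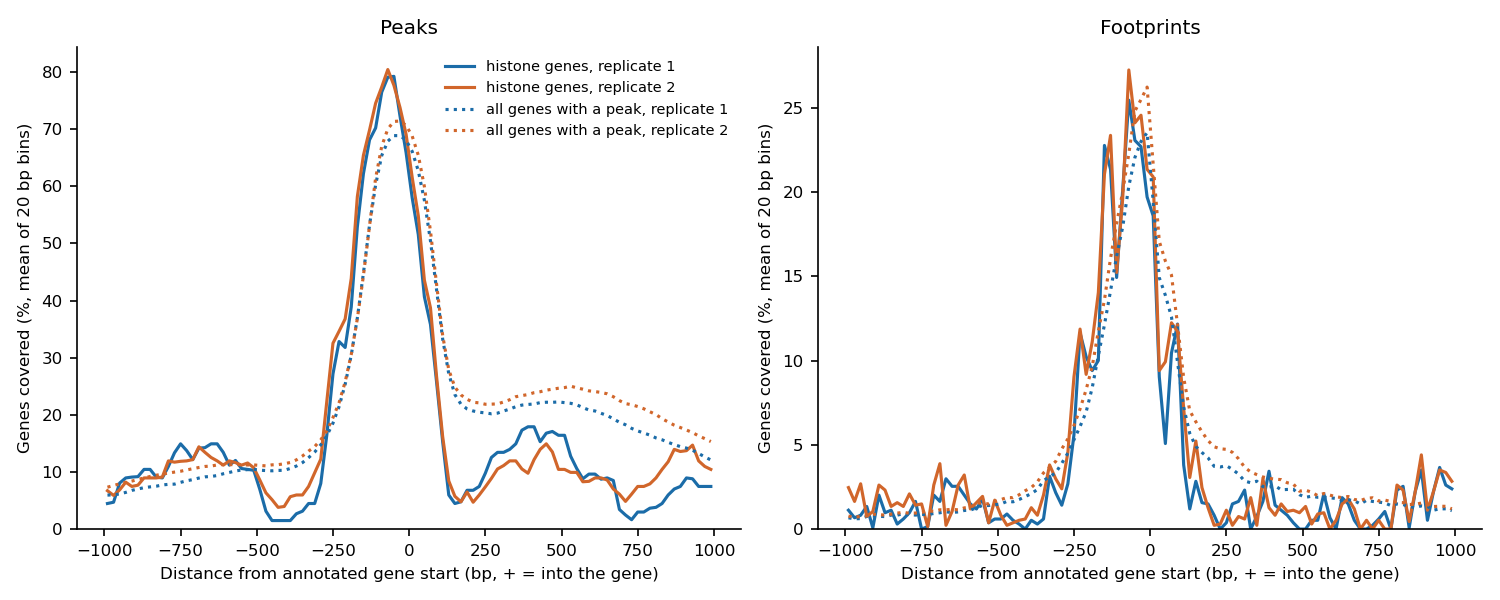
Share of genes covered by a peak (left) or a footprint (right) in 20 bp bins by distance from the annotated start (horizontal axis, bp, positive into the gene), solid for the 67 histone genes, whether open or not, and dotted for all protein-coding genes open in both pools, in blue for replicate 1 and orange for replicate 2. The solid peak curves reach 79.3% and 80.4%, and the solid footprint curves have their maximum at 70 bp upstream, at 25.4% and 27.2%.

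The promoters shared sequence elements that the choice of genes did not use. Matches were searched from 250 bases before to 50 after the start on both strands, so genes of a pair share most of their matches. Only exact matches were counted, so an element with a changed base was missed. CCAAT was found in 56 of 67 histone promoters (83.6%), beside 39.0% of all protein-coding genes, and TATAAA in 37 (55.2%) beside 12.6%. CCAAT, the element bound by NF-Y, was in all 18 H2A and all 18 H2B promoters, 11 of 12 H3 and 5 of 6 H1 promoters, but in 4 of 13 H4 promoters. The octamer ATTTGCAT was in 7 H2A and 8 H2B promoters and in 0 of the other classes, 22.4% of the 67 beside 1.57% of all genes. The H4 site II consensus was matched in 3 histone promoters, those of Hist1h4h, Hist2h4 and Hist4h4, of 4 in all genes. The promoter of Hist1h4c had no exact match, but its printed sequence holds a stretch 1 base away from this consensus. The Hist1h4c footprints given above overlap part of that stretch in both pools. AAACACAAA, known from H1 promoters, was in 3, of which 1 was an H1 gene, Hist1h1t. The E2F patterns TTTCGCGC, TTTCCCGC and TTTGGCGC were in 12 (17.9%) beside 2.30%. Of the 9 promoters without a peak, 8 held CCAAT, as in the printed Hist1h2ba and Hist1h2ao sequences, against 82.8% of the 58 open ones. TATAAA was in 3 of the 9 against 58.6%, and an E2F pattern in 0 of the 9 against 20.7%. The printed Hist1h1c promoter, counted as without the H1 element, holds a stretch 1 base away from it. How many promoters hold such near matches was not tested. The median GC content of the 67 promoters was 45.3%, against 59.3% for open genes of all kinds. The ratio of observed to expected CpG was 0.750 against 0.725.

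**Figure D5:**
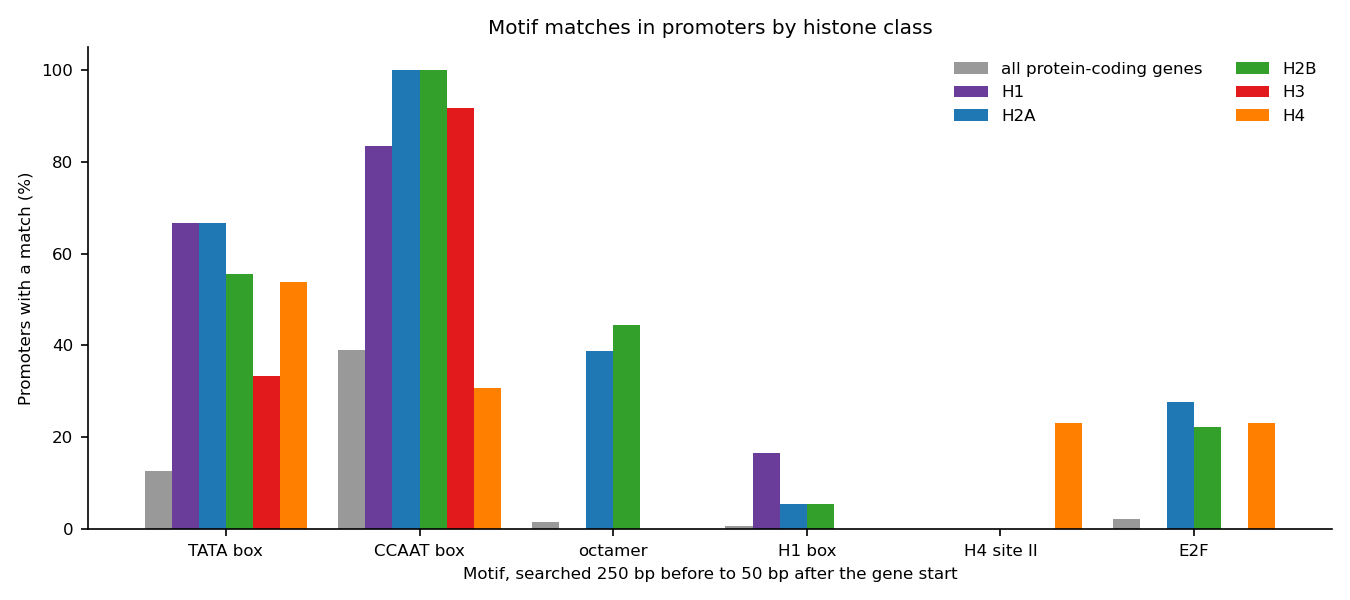
Share of promoters with a match to each element (vertical axis, %) for all protein-coding genes in grey and for the 5 histone classes in colour, searched from 250 bp before to 50 bp after the start. CCAAT reaches 100% in H2A and H2B and 30.8% in H4, and the octamer appears in H2A and H2B alone among the classes.

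Elements and footprints coincided to different degrees. In open histone promoters 16 of 30 TATAAA matches (53.3%) lay in a footprint in replicate 1 and 17 (56.7%) in replicate 2, with 13 in both, beside 25.4% and 26.99% of all windows of that length in the same promoters. Over open genes of all kinds the shares were 13.2% and 14.7%, beside 19.9% and 22.3% of windows. The TATAAA matches began at a median of −54 from the start in open histone promoters and −130 in open genes of all kinds. Windows here and below were taken over the whole searched stretch and not matched for position, so the part of position in these differences was not tested. In Hist2h2aa2 a footprint from −54 to −6 in replicate 1 and from −54 to −9 in replicate 2 spans the TATAAA in capitals above. In Hist2h2ac/Hist2h2be the box at the Hist2h2ac side was spanned in both pools, from −210 to −184 and from −210 to −183 of the Hist2h2be start. CCAAT matches lay in a footprint in 29.3% and 37.4% of 99 cases, beside 24.1% and 25.7% of windows, and over open genes of all kinds in 27.2% and 29.0%. Octamer matches did so in 3 and 2 of 9, and E2F matches in 7 of 11 (63.6%) in each pool, beside 27.9% and 29.5% of windows of that length. Over open genes of all kinds octamer matches lay in a footprint in 17.1% of cases in each pool and E2F matches in 42.4% and 49.1%. These are matches of letters and do not show which factor was bound.

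The other end of the genes carried the stem-loop of histone mRNAs. The common form of the 16-base stem-loop lay within 150 bp after the stop codon in 38 of 67 genes exactly and in 58 with up to 2 mismatches. Outside the family 1 of 21844 protein-coding genes had an exact match. The exact form was in 15 of 18 H2A genes, 10 of 18 H2B, 8 of 12 H3 and 5 of 6 H1 genes. No H4 gene had it, 0 of 13, and 8 of them, among them Hist1h4c, carried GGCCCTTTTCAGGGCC in its place, which is 2 mismatches away and keeps the complementary arms. Among the 9 genes beyond 2 mismatches were Hist1h2bq and Hist1h2br, with no peak, and Hist1h2bp and Hist2h2be, which were among the H2B genes with the most signal. The rest of the 9 were H4 genes, all of them open. The stop codon was taken as the outermost coding end over the transcripts of a gene, and the part of this in the missing matches was not tested.

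Genes of related function were open as well, beside 61.9% of all protein-coding genes and medians of 3.002 and 4.07 over open ones. The replacement and variant histones were open in both pools in 12 of 12 cases with a median of 4.62 and 6.08. H2afx, the variant marked at DNA breaks, had 11.3 and 13.5, and H2afz had 8.06 and 10.4. The genes for histone gene expression and 3′ processing were open in 18 of 18 cases, with 5.82 and 7.31. Npat had 12.7 and 14.6, Casp8ap2 of the histone locus body 11.3 and 13.7, and Slbp 5.99 and 7.35. The 10 histone chaperone genes (10 of 10) had 6.61 and 8.48, with Asf1b at 9.80 and 11.3. The genes for DNA replication and division were open in 24 of 24 cases with 4.30 and 5.79, by the mean of the pools from Tyms, the thymidylate synthase gene, at 1.83 and 2.03 to Mcm5, a subunit gene of the replicative helicase, at 9.41 and 11.7. All 4 medians were above those of the 58 histone genes in both pools, a difference that was not tested.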

How the data were processed

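DNase-seq peaks, footprints and cleavage rates were analysed for 2 adrenal gland pools, 1 library each. Per the labels all files are on mm10, and per the readme texts that came with the samples, peaks were called by the authors in each library on its own filtered alignments and footprints were derived from the alignments and the table of false discovery rates. No aligner, caller, version, threshold, read length or rule for reads that match several places is given in the sources used here. The deposited peak lists give the authors' signal per peak, with other value columns constant. The deposited footprint lists hold 1 fraction, 0.01, in every row, so footprints were counted and not ranked. The deposited table gives the false discovery rate, a p-value adjusted for multiple tests, of intervals under 0.05. No file holds counts, so depth is unknown and no interval was computed.

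The longer of 2 peak lists per pool was used. Promoters were 1 kb on either side of each start of GENCODE vM21 basic transcripts, and the highest signal of an overlapping peak (at least 1 bp) was taken per pool. Each histone gene was given by counts and values beside the same over all protein-coding genes, and no test was made, since there is 1 group. Named genes were, per class, the 3 with the highest mean signal and the lowest open one, the genes without a peak, and the germ cell genes. Further genes were named after their values were seen, among them Hist1h4a and the other H4 genes, the head-to-head pairs and the printed promoters. The members and lists were chosen with earlier results of these data known. Classes and clusters were read from the symbols, and blocks were split at gaps over 300 kb. Motifs, the stem-loop and the share of 36-base and 76-base words found at a single place were read from the RefSeq copy of GRCm38. Counting was checked on simulated data. Alternatives covered the peak list, promoter width, overlap, number of peaks, starts, shared promoters, footprint filters and leaving out a pool, and 3 were added after seeing the data: promoters of 250 bp, 1 kb around the start codon, and genes with at least 50% of words at a single place. Python 3.11.15, numpy 2.4.6, pandas 2.3.3, pysam 0.24.0, numba 0.67.0, bedtools 2.31.1, samtools 1.23.1 and matplotlib 3.10.9 were used.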

Additional observations from a re-analysis of the deposited data

How the results depend on the processing

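The count of 58 open histone genes, the counts per class, the 58 genes with a footprint and the share of peaks with a footprint stayed within 1.5 times or 1 SD between pools under the alternatives run, except that merged promoters counted once gave 36 of 38 regions in place of 58 of 67 genes. Some of these limits could not be passed. A mean of 2 pools, such as the share of peaks with a footprint, cannot move by 1 SD between them when a pool is left out. Nor can 58 of 67 rise by 1.5 times, or 13 of 13 H4 genes at all. Promoters of 2 kb gave the most open genes, 66 of 67 beside 64.5% of all genes, and 66 with a footprint. All H2A, H2B and H3 genes then counted as open and 5 of 6 H1 genes. The shorter peak list gave 54, beside 56.7% of all genes, and promoters of 250 bp gave 56, beside 58.2%. The start codon gave 59, beside 45.6% of all genes. Genes with at least 50% of words at a single place gave 53 of 57. The median signal, 3.95 by the mean of the pools, ran from 3.46 to 4.06 when a pool was left out and was 5.25 with the signals of a promoter summed. The median number of footprints, 6, ran from 6 to 7 when a pool was left out. It was 5 with promoters of 500 bp, 8.5 with 2 kb, 5 for footprints inside a peak and 4 for those that overlap one of the other pool. The cause was not tested beyond the construction of these settings, which take fewer or more intervals. Median signals of single classes moved by more than 1 SD between pools in 12 cases, all in H2A, H2B or H3 genes, and in H3 genes fell to 2.43 with promoters of 500 or 250 bp. No paired analysis was possible because there is only 1 group. Depth is unknown, so 9 promoters without a peak are not shown to be closed.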
